A study of Mus musculus with 12 samples.

Results

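Mouse embryonic stem cells kept for 6 days in 2i with 25 µM of an MRE11 inhibitor were set against cells kept for 6 days in 2i alone. The groups were chosen by their treatment labels, not by any measured value. They made up 6 of the 12 libraries of the series, 3 with the inhibitor and 3 without. Every library came from R1 cells, a single male line of 129/Sv background, that had grown in serum with LIF on gelatin. On day 0 these cells, which the labels call primed, were moved to 2i, a pair of small molecules that block MEK and GSK3, alone or together with the inhibitor. The other libraries were 3 of day 0 cells and 3 of cells given 50 µM of the inhibitor in 2i for the same 6 days. The sources used here give neither the name of the inhibitor nor its solvent, nor whether the cells in 2i alone received that solvent. Whether a group's 3 libraries were grown as separate cultures is not stated either, and the p-values then reflect only how far these libraries differ, possibly for technical reasons.

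MRE11, together with RAD50 and NBN, forms a complex at DNA breaks, and its nuclease activity trims the ends for repair by recombination and can also act on nascent DNA at stalled replication forks. Before a cell copies its DNA, the origin recognition complex, CDC6 and CDT1 load the MCM helicase onto origins, and E2F factors drive many genes of this step. During replication itself, clustered histone genes are switched on to package the new strands. In 2i, embryonic stem cells hold a naive state of pluripotency with low DNA methylation. In that state some germline genes are transcribed that methylation and Polycomb repressors keep silent in somatic cells, and rare cells switch on genes of the 2-cell embryo.

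Expression was read from the 3′ ends of polyadenylated transcripts. Levels are given in CPM, counts scaled to a common library size with TMM factors. Differences are log2 fold changes, 25 µM minus 2i, ± SE from the edgeR quasi-likelihood fit of all 12 libraries. A gene was called when its Benjamini-Hochberg adjusted p over the 13230 genes tested was below 0.05, with no fold minimum. The 6 libraries held 5997395 to 7060126 counts. Library number 1 stood apart in every group: an unnamed feature, ENSMUSG00000119584, took 2.71% and 2.40% of counts in the replicate 1 libraries of 2i and 25 µM, against 0.923% and 1.23% in 2i replicates 2 and 3 and 0.663% and 0.962% in 25 µM replicates 2 and 3. Same-numbered libraries also deviated together from their group means. A second fit therefore took the replicate number as a block. Where genes called only with it are named, some carry its adjusted p and others the fold change alone.

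At 25 µM, 60 genes were higher than in 2i alone (0.454% of the genes tested) and 64 were lower (0.484%), 124 in all (0.937%). With the replicate block, 328 were higher (2.48%) and 299 lower (2.26%), 627 in all (4.74%), and the first 124 were among them. These shares are the background for the list members called in each fit below, and a list with few calls may lie near them. The changes were small. The median size of a called rise was 0.57 and of a called fall 0.94 on the log2 scale. Of the rises 10 reached 2-fold, and of the falls 27. Over all genes tested the median change was 0.004, with quartiles at −0.15 and 0.15. Every library of one group lay above every library of the other for all 60 rises and all 64 falls. Such separation occurred in 10.2% of all genes tested in the upward and 9.25% in the downward direction (19.5% in both), and 887 and 842 genes had an unadjusted p below 0.05. Without the libraries of replicate number 1, 58 genes were higher and 82 lower. Without those of number 2 the counts were 1 and 5, and without number 3 they were 2 and 2.

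**Figure D1:**
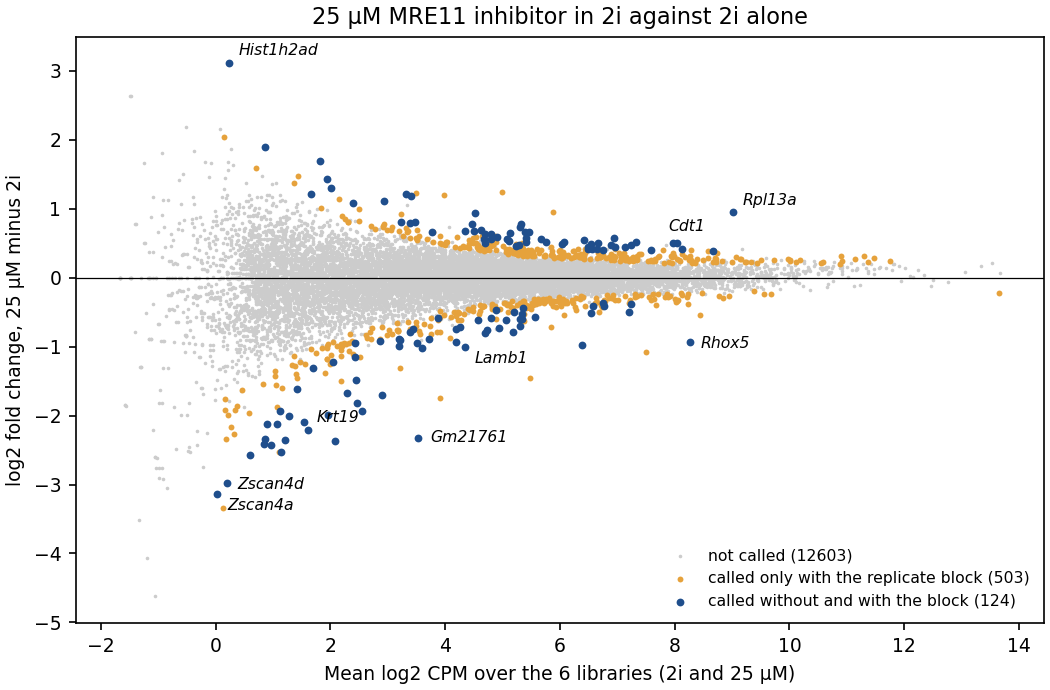
Each point is 1 of 13230 genes, with the mean log2 CPM over the 6 libraries on the x axis and the log2 fold change, 25 µM minus 2i, on the y axis. Blue points (124) were called without and with the replicate block and orange points only with it; the blue rises have a median size of 0.57 and the blue falls of 0.94.

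Most single calls depended on having all libraries. Leaving out 1 of the 6 libraries left 39, 14 and 10 genes higher (without 2i replicates 1, 2 and 3) or 24, 13 and 15 (without 25 µM replicates 1, 2 and 3). The genes called lower were then 62, 24 and 19, or 24, 20 and 24. In all, 5 rises and 10 falls kept an adjusted p below 0.05 in each of the 6 fits. The 5 rises were Rpl13a, Mybl2, Hist1h2ae, Hist1h4i and Clk4. Among the 10 falls were Lamb1, Rhox5, Smc1b, Platr3, Xlr, Tslrn1 and the predicted genes Gm21761, Gm8994 and Gm9. With the replicate block the same leave-outs gave 118 to 184 genes higher and 124 to 200 lower, and 41 of the 60 rises and 44 of the 64 falls were called in all 6 of them. Of all genes called with the block, 53 of the 328 rises and 63 of the 299 falls were called in all 6. Most genes called only with the block did not keep that call in all 6 of these fits. For a gene that lost its call, the highest adjusted p over the 6 leave-one-out fits of edgeR is given with the library whose absence gave it.

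**Figure D2:**
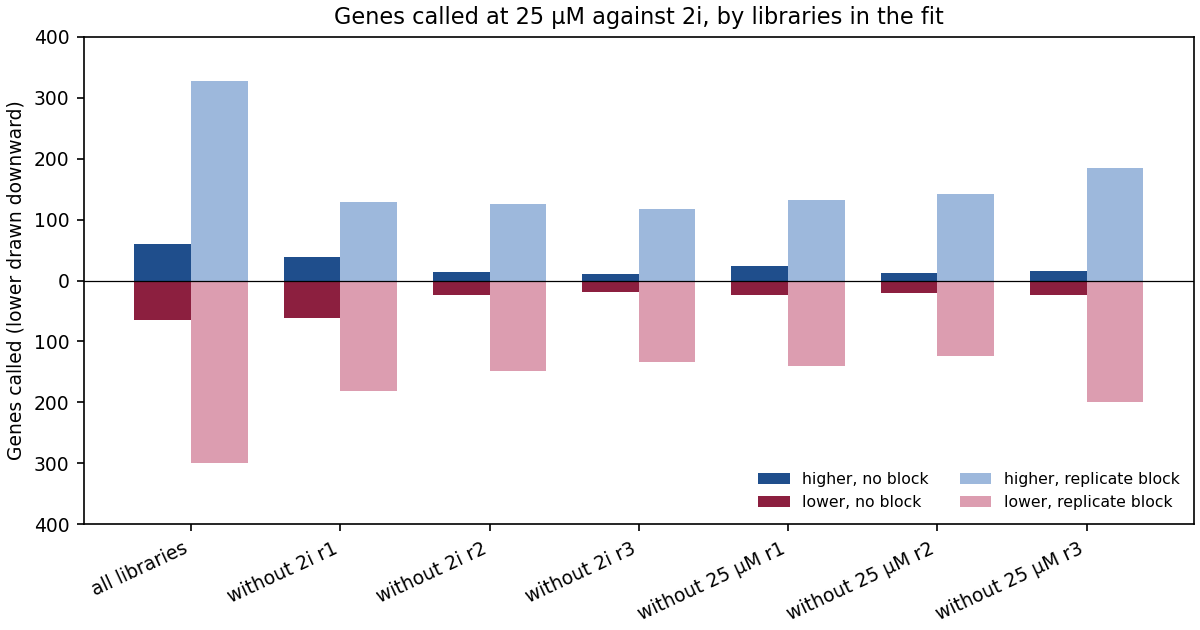
Bars count the genes called higher (upward) and lower (downward) at 25 µM against 2i with all libraries and with each of the 6 libraries left out, without the replicate block (dark) and with it (pale). The dark bars fall from 60 and 64 to as few as 10 and 19, and the pale bars from 328 and 299 to as few as 118 and 124.

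Of the genes that license replication origins, Cdt1 and Mcm5 were called higher. Cdt1 (chromosome 8, 122568015 to 122573554, GRCm38), the loading factor for the MCM helicase, had 224, 232 and 207 CPM in 2i and 335, 305 and 299 CPM at 25 µM. The groups did not overlap, and its rise was 1.41-fold (0.50 ± 0.08; edgeR adjusted p = 0.0064, or 0.058 when 2i replicate 3 was left out). Mcm5, a subunit of the helicase itself, went from 355, 347 and 362 CPM to 489, 418 and 483 CPM, a rise of 0.39 ± 0.09 that was lost without any of the 6 libraries (edgeR adjusted p = 0.044, and up to 0.20 without 2i replicate 2). Of 18 licensing factors, all tested, these 2 were called higher and none lower. The median of the 18 was 0.18, against 0.004 over all genes. With the replicate block 7 were higher, against 2.48% of all genes tested. Mcm2 (0.30), Mcm6 (0.28), Mcm7 (0.22), Cdc6 (0.26) and the CDT1 inhibitor Gmnn (0.30) were added. Orc4 of the origin recognition complex was lower with the block (−0.34, blocked adjusted p = 0.031 by edgeR). Mcm3 and Mcm4 (0.19 each) and Orc1 (0.17) were called in neither fit.

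Genes of later steps of replication were read in 3 further lists. Of 20 origin firing factors 1 was called, Gins2, a subunit of the GINS complex that activates the helicase. It had 117, 125 and 119 CPM in 2i and 173, 158 and 162 CPM at 25 µM. These groups did not overlap, and the rise was 0.45 ± 0.09 (edgeR adjusted p = 0.013, and up to 0.086 without 2i replicate 3). Of 36 genes of fork protection and the checkpoint 1 was called, the fork factor Timeless, with 85.2, 70.4 and 74.5 CPM against 114, 97.5 and 100 CPM (0.44 ± 0.10, edgeR adjusted p = 0.040, and up to 0.20 without 2i replicate 2). None of 41 tested genes of DNA polymerases and nucleotide supply was called. With the block 2 of the 41 were higher, the polymerase delta subunit Pold1 (0.39 ± 0.09, blocked edgeR adjusted p = 0.0088) and the uracil glycosylase Ung (0.39 ± 0.07, 0.00068).

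Several single genes with roles in the cell cycle or chromatin, gathered here from different lists or outside them, were called higher. Mybl2, which encodes the cell cycle factor B-MYB (chromosome 2, 163054687 to 163084688), had 102, 93.7 and 104 CPM in 2i and 145, 149 and 154 CPM at 25 µM, a rise of 0.58 ± 0.08 (edgeR adjusted p = 0.0015). The lowest 25 µM library was well above the highest 2i library, and the call held in each leave-one-out fit, with an adjusted p of at most 0.018. Uhrf1 (chromosome 17, 56303321 to 56323486), which brings DNA methyltransferase 1 to newly copied DNA, had 135, 141 and 128 CPM in 2i and 202, 200 and 176 CPM at 25 µM. Its rise was 0.52 ± 0.09 (edgeR adjusted p = 0.0066, or 0.058 when 2i replicate 3 was left out). E2f1, an activator of S phase genes, went from 32.2, 49.3 and 43.9 CPM to 60.4, 63.6 and 62.1 CPM (0.57 ± 0.12, edgeR adjusted p = 0.031, and up to 0.13 without 2i replicate 1). Its relative E2f8, a repressor of such genes, rose by 0.68 ± 0.15 (0.039, and up to 0.16 without 25 µM replicate 1). H2afx, the histone variant phosphorylated at DNA breaks, had 228, 223 and 182 CPM in 2i and 358, 284 and 255 CPM at 25 µM (0.50 ± 0.12, 0.044, and up to 0.22 without 2i replicate 3).

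**Figure D3:**
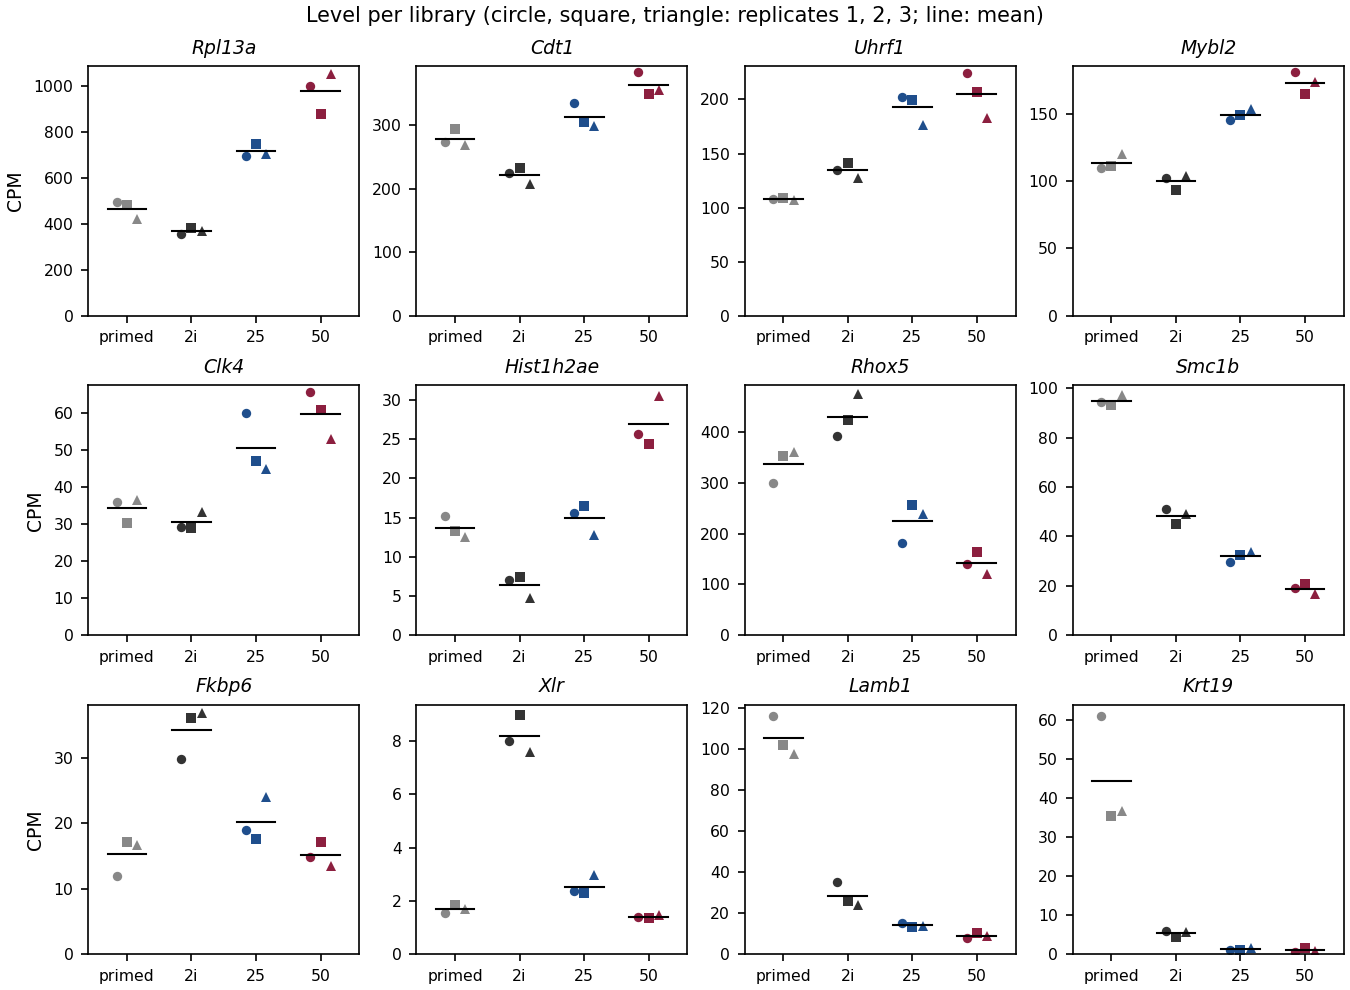
Each panel shows the CPM of 1 gene in every library of day 0 (primed), 2i alone, 25 µM and 50 µM, with a circle, square and triangle for replicates 1, 2 and 3 and a line at the mean. In all 12 panels the 2i and 25 µM libraries do not overlap: Rpl13a, Cdt1, Uhrf1, Mybl2, Clk4 and Hist1h2ae are higher at 25 µM and Rhox5, Smc1b, Fkbp6, Xlr, Lamb1 and Krt19 lower.

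The gene for the inhibited enzyme did not pass the test. Mre11a (chromosome 9, 14784654 to 14837123) had 48.4, 50.2 and 41.6 CPM in 2i and 54.7, 51.7 and 45.3 CPM at 25 µM, with overlapping groups and a difference of 0.11 ± 0.10 (edgeR adjusted p = 0.71). A catalytic inhibitor need not alter the transcript of its target, so this level does not check the treatment labels. The nibrin gene Nbn (−0.05 ± 0.13, 0.92) was not called either. Rad50, the ATPase of the complex, had 314, 281 and 292 CPM in 2i and 244, 202 and 246 CPM at 25 µM, and the groups did not overlap. The difference of −0.36 ± 0.09 missed the threshold (edgeR adjusted p = 0.069) and passed it with the replicate block (0.0011). Of 45 tested genes of the MRE11 complex and double-strand break repair 1, H2afx, was called higher and none lower. With the block Rad54l (0.25), which acts in strand exchange, was among the rises, and Rad50 and the ligase gene Lig3 (−0.37) were lower. The median of the 45 was 0.09.

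Targets of the damage response were not called. Of 33 tested p53 targets none passed, with a median of 0.08; the cell cycle inhibitor Cdkn1a had 239, 205 and 216 CPM in 2i and 272, 230 and 254 CPM at 25 µM (0.19 ± 0.12, edgeR adjusted p = 0.54), and the p53 ligase Mdm2 differed by 0.10 ± 0.09 (0.67). With the block the nuclease gene Aen was higher (0.58 ± 0.18, 0.046) and the growth inhibitor Ddit4 lower (−0.42 ± 0.10, 0.011). None of 21 Fanconi anaemia genes (median 0.04) and none of 29 genes of G2 and mitosis (median 0.05) was called without the block. With it, Fancl (0.32) and the survivin gene Birc5 (0.23) were higher and the spindle gene Hmmr (−0.24) lower.

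Of the replication-dependent histone genes, 4 of 42 tested were called higher, against 0.454% of all genes tested, and 8 with the block, against 2.48%. These histones are made in S phase from clustered, near-identical genes whose main transcripts carry no poly(A) tail, so a library primed with oligo-dT holds only their polyadenylated forms, and reads may be shared between copies; single histone genes are therefore uncertain. Hist1h2ae (chromosome 13, 23570517 to 23571220) had 7.06, 7.36 and 4.68 CPM in 2i and 15.5, 16.4 and 12.8 CPM at 25 µM. It rose 2.32-fold (1.22 ± 0.19, edgeR adjusted p = 0.0021). Hist1h4i went from 4.61, 5.01 and 5.32 CPM to 11.3, 10.7 and 10.4 CPM (1.11 ± 0.19, 0.0066). Neither gene had overlapping groups, and both kept the call in every leave-one-out fit.

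Of 70 histone genes listed 42 passed the low-count filter, 4 were called higher and none lower, and 39 of the 42 had a positive change, with a median of 0.63. Under DESeq2, RLE or upper-quartile scaling 37 were positive. Genes at such low levels can pass the filter through the group in which they are high, so these counts describe the members that passed and not the whole family. Over all 70 members the summed level was 179, 137 and 137 CPM in 2i and 245, 197 and 215 CPM at 25 µM, and these sums did not overlap. The other called members were Hist1h4b (2.61, 1.91 and 2.58 CPM against 4.86, 6.67 and 5.96 CPM) and Hist1h2ad. Hist1h2ad had 4, 0 and 1 counts in 2i and 18, 16 and 12 counts at 25 µM, a ratio of 9.17 with an exact 95% interval of 3.66 to 29.6 that covers counting error only. The Hist1h2ad call was lost without 4 of the libraries (edgeR adjusted p up to 0.11, without 2i replicate 3) and the Hist1h4b call without any of the 6 (up to 0.18, without 2i replicate 2). With the block 8 members were higher, with Hist1h3d (1.24), Hist2h4 (1.61), Hist1h4a (2.04) and the linker histone Hist1h1c (0.52) added.

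**Figure D4:**
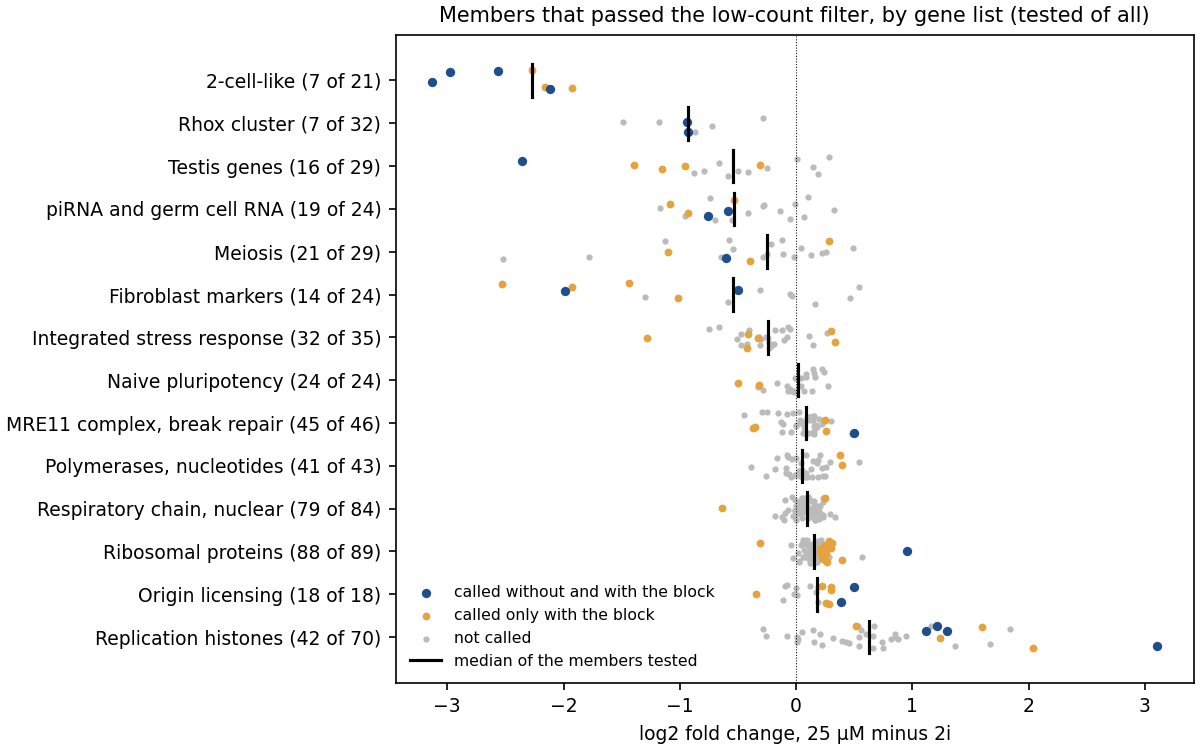
Each point is a gene of 1 of 14 lists that passed the low-count filter, placed by its log2 fold change, 25 µM minus 2i; blue was called without and with the replicate block, orange only with it and grey in neither fit. The vertical bar is the median of the tested members, which runs from −2.27 for 2-cell-like genes to 0.63 for replication histones, and the numbers beside each name are the members tested and the members listed.

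Rpl13a, a protein of the large ribosomal subunit that also controls translation of inflammatory transcripts, had the smallest adjusted p of all rises. Its gene (chromosome 7, 45125558 to 45128761) had 357, 382 and 369 CPM in 2i and 698, 748 and 706 CPM at 25 µM. Within the numbered pairs it was higher by 0.96, 0.97 and 0.94 on the log2 scale. The fitted rise was 0.96 ± 0.09, or 1.94-fold (edgeR adjusted p = 2.8e-06), and stayed below an adjusted p of 0.00015 in each leave-one-out fit. Ribosomal protein genes have many processed pseudogenes, and reads may be split between Rpl13a and its copies. The other 87 tested ribosomal protein genes were not called, although 85 of the 88 had a positive change under every scaling tried, with a median of 0.16. With the block 16 were higher, among them Rpl15 (0.39), Rpl10 (0.30) and the stalk protein gene Rplp0 (0.25), and the testis paralogue Rpl10l was lower (−0.31). Of 40 ribosome biogenesis genes none was called, and with the block the ribosomal DNA factor Ubtf was higher (0.42 ± 0.07, blocked edgeR adjusted p = 0.00052) and Utp3 lower (−0.28 ± 0.07, 0.012).

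The splicing factor kinase genes Clk1, Clk3 and Clk4 rose. Clk4 (chromosome 11, 51261730 to 51281766) had 29.3, 28.9 and 33.4 CPM in 2i and 60.2, 47.0 and 45.0 CPM at 25 µM, with replicate 1 the highest of the treated libraries. The rise was 0.73 ± 0.13 (1.66-fold, edgeR adjusted p = 0.0066, at most 0.046 in the leave-one-out fits). Clk3 went from 44.5, 47.9 and 42.9 CPM to 67.4, 61.5 and 65.2 CPM (0.52 ± 0.11, 0.020), and Clk1 from 83.4, 73.9 and 79.4 CPM to 132, 105 and 96.6 CPM (0.49 ± 0.12, 0.049). Both of the latter calls were lost without any of the 6 libraries, with an adjusted p of up to 0.11 for Clk3 (without 2i replicate 3) and 0.23 for Clk1 (without 25 µM replicate 1). These were the 3 called members of 27 splicing kinases and SR proteins; the median of the 27 was 0.06. With the block the splicing regulator Rbm39 (0.22) and the RNA helicase gene Ddx17 (0.22) were also higher. Another RNA helicase gene, Ddx39b, was called higher (237, 269 and 219 CPM against 349, 330 and 294 CPM; 0.42 ± 0.10, edgeR adjusted p = 0.043, and up to 0.22 without 2i replicate 3).

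Of the 7 tested genes of the 2-cell-like state 4 were called lower. Zscan4d, a zinc finger gene of the 2-cell embryo (chromosome 7, 11161374 to 11166159), had 10, 20 and 12 counts in 2i and 1, 1 and 3 counts at 25 µM, 8.42-fold lower with an exact 95% interval of 3.34 to 27.3. Its neighbour Zscan4a, a pseudogene in the annotation, had 11, 14 and 13 counts against 0, 4 and 0 counts, 9.53-fold lower (3.43 to 36.8). Tmem92 had 14, 20 and 21 counts against 1, 5 and 3 counts, 6.13-fold lower (3.00 to 14.1), and Sp110 had 15, 35 and 25 counts against 2, 7 and 8 counts, 4.42-fold lower (2.59 to 7.99). The groups did not overlap in any of these genes, and the intervals cover counting error only.

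The edgeR adjusted p was 0.043 for Zscan4a, 0.019 for Zscan4d, 0.015 for Tmem92 and 0.022 for Sp110. Each of the 4 calls was lost without 4 or 5 of the libraries, with an adjusted p of up to 0.17 (Zscan4a, without 25 µM replicate 3), 0.11 (Zscan4d, without 2i replicate 2), 0.096 (Tmem92, without 2i replicate 3) and 0.13 (Sp110, without 2i replicate 2). With the replicate block Zscan4c, Usp17la and Usp17lc were called lower too (edgeR adjusted p with the block 0.020, 0.031 and 0.033). Only 7 of 21 genes on this list passed the low-count filter, and they passed through their counts without the inhibitor, so that their median of −2.27 is a description and no test of the list. Among the others, Tcstv3 had 1.54, 2.36 and 1.13 CPM in 2i and 0, 0.49 and 0.28 CPM at 25 µM, and 5 members had no count in the 6 libraries. Summed over all 21, the level was 19.5, 23.4 and 23.9 CPM in 2i and 3.45, 5.53 and 5.25 CPM at 25 µM. In bulk libraries, fewer cells in this state and less RNA per such cell cannot be told apart. Copies within the family cannot be told apart with certainty either: the RefSeq windows around the starts of Zscan4c and Zscan4d (GRCm38.p6) are identical in 281 of 289 aligned bases.

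**Figure D5:**
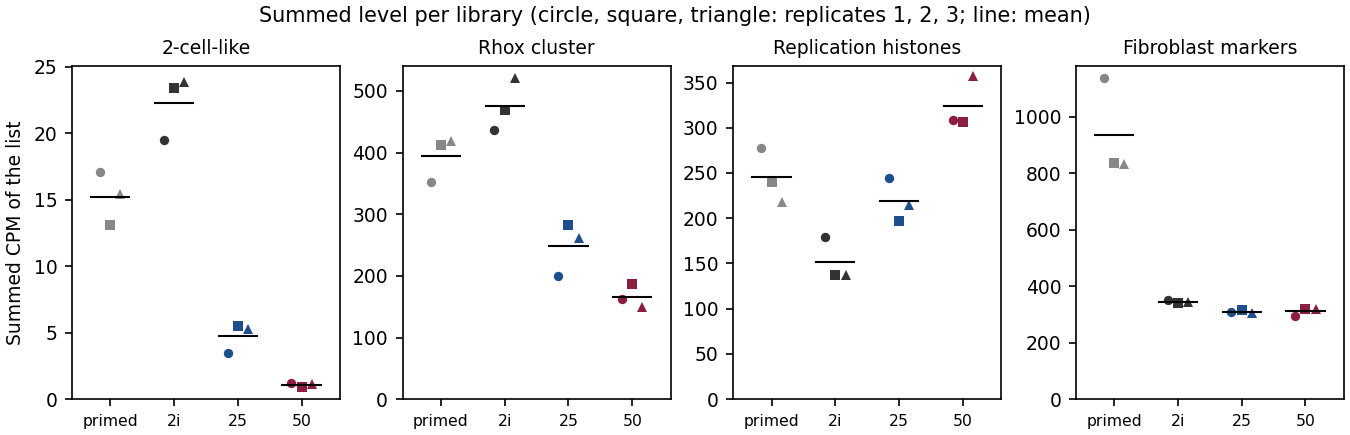
Each panel shows the summed CPM of all listed members of 1 gene list in every library, with a circle, square and triangle for replicates 1, 2 and 3 and a line at the mean. The sums of 2-cell-like and Rhox genes and of fibroblast markers are lower at 25 µM than in 2i in every library, and those of replication histones are higher.

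Of the germline genes, Smc1b, Brdt, Fkbp6 and Rnf17 were called lower. Smc1b, the meiotic cohesin subunit (chromosome 15, 85064689 to 85131964), had 51.3, 44.9 and 49.2 CPM in 2i and 29.8, 32.5 and 33.5 CPM at 25 µM. The groups did not overlap, and the fall of 0.60 ± 0.11 (edgeR adjusted p = 0.0067) held in every leave-one-out fit, with an adjusted p of at most 0.042. Brdt, a bromodomain protein of the testis (chromosome 5, 107331159 to 107387058), had 18, 31 and 39 counts in 2i and 4, 5 and 8 counts at 25 µM, 5.19-fold lower (exact 95% interval 3.07 to 9.31; edgeR adjusted p = 0.0064, and 0.058 without 2i replicate 3). Fkbp6, which acts in the piRNA pathway that silences transposons in the male germline (chromosome 5, 135291704 to 135350044), went from 29.8, 36.1 and 36.9 CPM to 19, 17.6 and 24.0 CPM. That difference was −0.76 ± 0.15 (0.016, and up to 0.11 without 2i replicate 3). Rnf17, a Tudor-domain partner of the same pathway, had 33.5, 34.0 and 33.6 CPM in 2i and 22.9, 26.5 and 18.2 CPM at 25 µM (−0.58 ± 0.14, 0.047). Its call was lost without any of the 6 libraries (up to 0.21, without 25 µM replicate 3).

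These 4 were the called members of 56 tested genes, out of 82 on the lists of meiosis, piRNA and testis genes. None was called higher. The median of the 56 was −0.41, and 43 were below 0, against a median of 0.004 over all genes. Genes with few counts can pass the filter through the group in which they are high, so the 56 do not stand for the 82. Over all listed members the meiosis genes summed to 402, 406 and 411 CPM in 2i and 365, 392 and 373 CPM at 25 µM. The piRNA list summed to 769, 901 and 975 CPM against 465, 597 and 650 CPM. The testis list summed to 452, 548 and 470 CPM against 392, 450 and 385 CPM. In each list the sums did not overlap. With the replicate block 13 of the 56 were lower and 1 higher, against 2.26% lower and 2.48% higher over all genes tested. Among the added genes, Dazl, a germ cell RNA-binding protein, had 227, 288 and 291 CPM in 2i and 84.2, 141 and 155 CPM at 25 µM (−1.11 ± 0.21, blocked edgeR adjusted p = 0.040, and 0.11 without the block). Sycp3, a protein of the synaptonemal complex, had 9.67, 6.48 and 5.65 CPM against 3.61, 3.42 and 3.12 CPM (−1.09 ± 0.24, 0.0046 with the block and 0.060 without). Stag3 (−0.39), Piwil2 (−0.94), Slc25a31 (−0.97), Tuba3b (−1.19) and Tex19.1 (−0.54) were also lower with the block. Sohlh2, a transcription factor of germ cells outside these lists, was called lower without it, with 30.7, 42.9 and 44.8 CPM in 2i and 20.2, 26.5 and 24.6 CPM at 25 µM (−0.73 ± 0.15, edgeR adjusted p = 0.024, and up to 0.13 without 2i replicate 3). None of 32 genes for repressors of the germline program was called; with the block the demethylase gene Kdm1a was lower (−0.33 ± 0.08, 0.015).

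Many germline promoters hold an E-box, CACGTG, which reads the same on both strands and which the Polycomb partners MGA and MAX can bind. The 250 bases before the RefSeq start (GRCm38.p6) are printed for 3 of the 4 genes called without the block, those with a window in the table, and for Sycp3, 5′ to 3′ on the gene's own strand with the E-boxes in capitals. Brdt is at chr5:107330944-107331193 (plus strand), Fkbp6 at chr5:135350045-135350294 (minus), Sycp3 at chr10:88459337-88459586 (plus) and Smc1b at chr15:85131958-85132207 (minus).
Brdt: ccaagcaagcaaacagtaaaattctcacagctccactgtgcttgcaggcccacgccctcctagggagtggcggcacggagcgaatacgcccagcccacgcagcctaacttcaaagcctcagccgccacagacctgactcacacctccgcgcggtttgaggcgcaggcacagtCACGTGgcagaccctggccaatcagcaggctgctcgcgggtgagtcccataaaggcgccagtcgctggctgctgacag
Fkbp6: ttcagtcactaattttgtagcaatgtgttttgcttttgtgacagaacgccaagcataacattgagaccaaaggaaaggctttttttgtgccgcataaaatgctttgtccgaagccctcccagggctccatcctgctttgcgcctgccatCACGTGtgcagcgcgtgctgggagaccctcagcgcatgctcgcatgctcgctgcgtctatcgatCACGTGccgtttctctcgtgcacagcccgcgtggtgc
Sycp3: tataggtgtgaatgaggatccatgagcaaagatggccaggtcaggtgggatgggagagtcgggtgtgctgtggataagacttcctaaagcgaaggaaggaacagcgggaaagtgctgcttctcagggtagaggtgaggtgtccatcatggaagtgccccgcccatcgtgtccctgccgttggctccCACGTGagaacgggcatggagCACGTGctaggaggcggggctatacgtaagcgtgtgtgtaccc
Smc1b: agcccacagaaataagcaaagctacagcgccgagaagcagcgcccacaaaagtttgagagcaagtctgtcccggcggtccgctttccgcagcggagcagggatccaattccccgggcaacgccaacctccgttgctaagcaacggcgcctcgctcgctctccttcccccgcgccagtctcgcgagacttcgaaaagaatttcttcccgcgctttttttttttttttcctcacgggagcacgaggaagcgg

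The E-box of Brdt begins 78 bases before the start, those of Fkbp6 101 and 37 bases before and those of Sycp3 64 and 43 bases before, and the Smc1b window holds none. Fkbp6 has 2 starts in the table, and the window was chosen by its number of matches. Of 46 tested germline genes with a window 15 held the E-box in a window (32.6%), against 979 of the 9696 tested genes that have a window (10.1%). Over all 32851 windows of this length the share was 6.02%. Of the germline genes with a window, 5 of the 11 lower with the block held it (45.5%: Brdt, Fkbp6, Stag3, Sycp3 and Slc25a31). So did 10 of the 35 others (28.6%). The windows of Dazl, Tex19.1, Tuba3b, Rpl10l and Tex13b, also lower with the block, held none. Among all genes called without the block, 5 of 39 lower ones with a window held it (12.8%) and 3 of 40 higher ones (7.5%). A match describes these letters only and is not a measured site of binding.

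The Rhox homeobox genes, a cluster on the X chromosome that is active in the reproductive tract and placenta, were lower in the members with most counts. Rhox5 (37804842 to 37808876) had 394, 424 and 475 CPM in 2i and 181, 256 and 238 CPM at 25 µM. The highest treated library was below the lowest library of 2i, and the fall to 52.3% (−0.94 ± 0.13, edgeR adjusted p = 0.0015) held in every leave-one-out fit, with an adjusted p of at most 0.0076. Rhox13 went from 19.8, 26.8 and 28.2 CPM to 10.4, 15.0 and 13.9 CPM (−0.93 ± 0.16, 0.0066, and 0.057 without 2i replicate 3). Of 32 members listed 7 passed the filter, and all 7 changes were negative. Members with few counts can pass through the groups in which they are high, so this describes the 7 and not the cluster. Rhox5 made up most of the summed level of the list in every library. Rhox9 (−0.87), Rhox6 (−0.72) and Rhox1 (−0.29) were among the 5 not called, in either fit. Copies of Rhox2, Rhox3 and Rhox4 are near-identical, and 16 members had no count in the 6 libraries.

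Calls on the X chromosome beyond the Rhox genes were falls too. Of 467 tested genes on the X chromosome 7 were lower (1.499%), Rhox5 and Rhox13 among them, and none higher. Over all genes tested 0.484% were lower and 0.454% higher. Chromosomes 6, 14 and 15 had no called rise either. Whether the X chromosome differs from the others was not tested, and so few calls describe single genes only. Xlr, of the X-linked lymphocyte-regulated family, which has members active in germ cells (53777118 to 53797706), had 7.98, 8.99 and 7.58 CPM in 2i and 2.35, 2.28 and 2.98 CPM at 25 µM. It was 3.20-fold lower (−1.68 ± 0.24, edgeR adjusted p = 0.0015, at most 0.016 in the leave-one-out fits). Its relatives Xlr3c, Xlr4b and Xlr4c were lower with the block (−1.34, −0.80 and −1.15), and reads may be shared within this family. The long noncoding RNA Tslrn1 went from 7.37, 10.5 and 8.07 CPM to 2.82, 3.42 and 2.98 CPM (−1.49 ± 0.24, 0.0049), and the predicted gene Gm9 from 9.83, 15.8 and 14.2 CPM to 2.51, 4.72 and 4.97 CPM (−1.70 ± 0.26, 0.0020). Map7d2, which encodes a microtubule protein, was lower by 0.70 ± 0.13 (0.013, and up to 0.11 without 2i replicate 3).

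The smallest adjusted p of the comparison belonged to a predicted gene on an autosome. Gm21761 (chromosome 13, 119912095 to 119929272), annotated as protein-coding with no named function, had 21.2, 28 and 26.5 CPM in 2i and 5.02, 3.58 and 6.39 CPM at 25 µM. It was 4.99-fold lower (−2.32 ± 0.20, edgeR adjusted p = 1.1e-06, at most 2.8e-05 in the leave-one-out fits). Gm8994 (chromosome 6, 136327539 to 136329983) had 48, 75 and 58 counts against 4, 15 and 16 counts, 5.19-fold lower (exact 95% interval 3.6 to 7.68; edgeR adjusted p = 0.0016). The long noncoding RNA Platr3, of a set of pluripotency-associated transcripts, had 46.1, 45.1 and 50.2 CPM in 2i and 27.0, 25.5 and 29.1 CPM at 25 µM (−0.79 ± 0.13, 0.0049). All 3 genes kept their calls in every leave-one-out fit.

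A few genes of matrix and of differentiated cells were called lower, while most of their lists were not. Lamb1, a laminin chain of basement membranes (chromosome 12, 31265234 to 31329644), had 35.2, 25.9 and 23.9 CPM in 2i and 15.4, 13.5 and 13.6 CPM at 25 µM, a fall to 50.0% (−1.0 ± 0.15, edgeR adjusted p = 0.0016, at most 0.016 in the leave-one-out fits). Krt19, a keratin of simple epithelia and trophoblast (chromosome 11, 100140810 to 100148665), had 39, 29 and 35 counts against 7, 6 and 11 counts. That was 4.30-fold lower (exact 95% interval 2.74 to 7.02; edgeR adjusted p = 0.0086, and 0.055 without 25 µM replicate 2). Col1a1, the chain of type I collagen, had 57, 50 and 33 counts against 13, 9 and 13 counts, 4.01-fold lower (2.75 to 5.99; 0.044, and up to 0.17 without 25 µM replicate 3). The collagen receptor gene Ddr2 went from 43.6, 42.7 and 43.4 CPM to 31.1, 31.4 and 29.3 CPM (−0.50 ± 0.12, 0.042, and up to 0.14 without 25 µM replicate 3). In none of these did the groups overlap.

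With the replicate block the type IV collagen genes Col4a1 (−1.69) and Col4a2 (−1.48), the simple keratins Krt8 (−0.94) and Krt18 (−0.92), the smooth muscle genes Acta2 (−2.51) and Tagln (−1.91), Thy1 (−1.02) and Timp3 (−1.41) were lower. In these the 2i libraries spread widely. Acta2 had 58, 25 and 11 counts in 2i and 8, 3 and 5 counts at 25 µM, and Col4a1 had 49.4, 16.2 and 20.5 CPM against 10.5, 7.0 and 8.09 CPM, with replicate 1 the highest in both groups. Of 24 fibroblast markers 14 passed the filter, 2 were called lower (Col1a1 and Ddr2) and 6 with the block, and the median was −0.54. Their summed level was 351, 341 and 344 CPM in 2i and 307, 317 and 307 CPM at 25 µM. The defining genes Dcn, Lum and Postn were among the 10 that did not pass. Of 22 tested genes of basement membrane and matrix 1, Lamb1, was called lower; the median was −0.02, with 10 changes positive and 12 negative, and with the block 4 were lower and Lamb2 (0.44) was higher. Their sums overlapped, with 2672, 2532 and 2665 CPM in 2i and 2589, 2709 and 2668 CPM at 25 µM. Of 15 tested trophoblast markers Krt19 alone was called, and none of 5 tested endoderm markers and 6 tested mesoderm markers. The summed level of all 20 mesoderm markers was 72.5, 59.2 and 70.7 CPM in 2i and 124, 101 and 97.1 CPM at 25 µM. That of 20 neuroectoderm markers was 183, 217 and 210 CPM against 225, 239 and 266 CPM. Both sets of sums were apart, with the 25 µM libraries higher, but each rested on a single gene. Bmp4 made up most of the mesoderm sums, and Ncam1 a large part of the neuroectoderm sums. Without that gene the sums of the groups overlapped in both lists. A part of such cells in these differences was not tested.

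Signalling genes moved singly. Sp5, a direct Wnt target, had 6.6, 12.1 and 12.7 CPM in 2i and 1.25, 3.42 and 4.12 CPM at 25 µM (−1.82 ± 0.35, edgeR adjusted p = 0.014, and up to 0.096 without 2i replicate 3). Axin2, a feedback inhibitor of Wnt signalling that stands for GSK3 inhibition in 2i, had 30.9, 37.4 and 41.0 CPM against 24.6, 26.4 and 21.0 CPM. That difference of −0.60 ± 0.15 missed the threshold (0.054) and passed it with the block (0.0037). Notum, another Wnt feedback gene, went the other way with the block (0.38 ± 0.09, 0.010), and of 15 tested Wnt targets 3 were then higher and 3 lower. The morphogen gene Bmp4 (chromosome 14, 46383520 to 46390669) had 49.8, 34.8 and 42.9 CPM in 2i and 102, 72.6 and 71.3 CPM at 25 µM. The groups did not overlap, the difference of 0.95 ± 0.21 was not called (0.060), and with the block it was (0.94 ± 0.09, 2.6e-09). Its target Id3 had 16.4, 6.78 and 8.87 CPM against 32.9, 22.3 and 18.5 CPM (1.21 ± 0.14, 3.7e-07 with the block and 0.25 without). Of 17 tested BMP and Nodal targets none was called without the block, and 3 were higher with it. The median of the 17 was −0.10, with 7 changes positive and 10 negative.

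ERK targets, which the MEK inhibitor of 2i holds down, were mostly not called. Over all 28 listed members the sums were 817, 768 and 800 CPM in 2i and 913, 870 and 874 CPM at 25 µM. These sums did not overlap, and whether few genes carried them was not tested. Of the changes in tested members 15 were positive and 9 negative, with a median of 0.02. The receptor gene Epha2 was the called member of 24 tested (32.9, 35.4 and 36.6 CPM against 51.0, 64.1 and 41.2 CPM; 0.57 ± 0.13, edgeR adjusted p = 0.040, and up to 0.22 without 25 µM replicate 2). Dusp6 had 12, 17 and 10 counts against 29, 13 and 16 counts (0.57 ± 0.40, 0.59). Of 16 LIF and STAT3 targets the cytokine inhibitor Socs2 rose (85.4, 70.8 and 77.3 CPM against 101, 113 and 98.6 CPM; 0.42 ± 0.10, 0.040, and up to 0.20 without 2i replicate 2). The adhesion gene Ncam1 was the called member of 8 tested neuroectoderm markers (102, 108 and 112 CPM against 127, 140 and 169 CPM; 0.44 ± 0.10, 0.044, and up to 0.25 without 25 µM replicate 3).

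Naive pluripotency genes were not called. All 24 were tested, with a median of 0.01 (−0.002 with RLE scaling), none passed without the block, and 12 changes were positive and 12 negative. Nanog had 1130, 1315 and 1103 CPM in 2i and 1087, 1225 and 1050 CPM at 25 µM (−0.08 ± 0.10, edgeR adjusted p = 0.78). Tfcp2l1 had 475, 501 and 507 CPM against 427, 441 and 457 CPM, groups that did not overlap but a difference (−0.16 ± 0.08) that was not called (0.39, and 0.13 with the block). Esrrb (0.14 ± 0.09), Klf4 (0.16 ± 0.12) and Zfp42 (−0.05 ± 0.13) were not called in either fit, nor was Otx2 of the formative epiblast (0.12 ± 0.12). With the block 2 naive genes were lower: the transcription factor Spic (75.4, 84.4 and 87.9 CPM against 56.8, 69.8 and 71.7 CPM; −0.32 ± 0.08, 0.015) and Dppa3. Dppa3, which guards methylation in the oocyte and also marks germ cells, had 102, 147 and 122 CPM in 2i and 72.0, 98.9 and 91.2 CPM at 25 µM (−0.50 ± 0.09, 0.00041 with the block and 0.34 without). Its groups did not overlap.

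Among 18 tested genes of the DNA methylation machinery Uhrf1 was the single call without the block. Dnmt1 (0.17 ± 0.10), Dnmt3a (−0.37 ± 0.14), Dnmt3b (−0.12 ± 0.11), Dnmt3l (−0.04 ± 0.13), Tet1 (0.03 ± 0.20) and Tet2 (0.04 ± 0.12) had edgeR adjusted p values from 0.24 to 0.97 and were not called with the block. Of 30 tested imprinted genes 1 rose and 1 fell. Rian, a noncoding RNA of the Dlk1-Dio3 domain, had 18.9, 14.1 and 17.6 CPM in 2i and 24.3, 24.2 and 37.5 CPM at 25 µM (0.77 ± 0.17, 0.040, and up to 0.21 without 25 µM replicate 3). H19, a noncoding RNA that restrains growth, had 17.4, 6.78 and 9.68 CPM against 3.61, 3.09 and 2.13 CPM (−1.94 ± 0.33, 0.013, and up to 0.083 without 25 µM replicate 3). Meg3, of the same domain as Rian, was higher with the block (0.35 ± 0.09, 0.035).

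Few members of the metabolic and stress lists were called. Of 25 tested cholesterol genes the sterol methyl oxidase gene Msmo1 was called lower (107, 117 and 107 CPM against 86.3, 82.2 and 80.5 CPM; −0.41 ± 0.10, edgeR adjusted p = 0.044, and up to 0.18 without 2i replicate 2), and Cyp51 (−0.32) was among those lower with the block. None of 32 tested targets of the integrated stress response was called; the median was −0.24 and 27 of the 32 changes were negative. Atf4, the factor that drives them, had 301, 279 and 163 CPM against 264, 205 and 167 CPM (−0.22 ± 0.25, 0.77). With the block the serine enzyme gene Psat1 (−0.32), the cysteine enzyme gene Cth (−0.41), Ddit4 and Cebpb (−1.28) were lower, and the amino acid transporters Slc7a3 (0.30) and Slc38a2 (0.34) higher. Of 79 tested nuclear genes of the respiratory chain, 23 NRF2 targets, 20 genes of endoplasmic reticulum chaperones and 34 Polycomb genes none was called without the block. In the respiratory chain list 65 of 79 changes were positive, with a median of 0.09, and with the block Cox6a1 (0.25) was higher and Cox7b2 (−0.64) lower. With the block the Polycomb genes Cbx7 (0.32) and Pcgf2 (0.41) were higher and Suz12 (−0.26) lower. Nqo1 (0.23 ± 0.12, 0.44) and Aldh3a1, shared targets of the aryl hydrocarbon receptor, were not called, and Cyp1a1 did not pass the low-count filter.

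The remaining genes among the largest called changes had varied roles. Mep1b, a meprin metalloprotease, had 35.9, 32.6 and 31.6 CPM in 2i and 48.6, 49.5 and 60.1 CPM at 25 µM (0.66 ± 0.11, edgeR adjusted p = 0.0064, and 0.054 without 2i replicate 3 and 0.051 without 25 µM replicate 3). Crip1 (0.77), Trip6 (0.69), Got1l1 (0.68), the polycystin gene Pkd2 (0.80), the interleukin receptor-associated kinase gene Irak3 (0.79) and the mitochondrial reductase gene Mecr (0.80) also rose. Their calls were each lost without 4 to 6 of the libraries, with an adjusted p of up to 0.20 (Trip6, without 2i replicate 3). At low counts Olfr985 (36 counts in 2i and 118 at 25 µM), Ccdc155 (15 and 57) and the pepsinogen gene Pga5 (36 and 84) rose. Their ratios were 3.27 (exact 95% interval 2.23 to 4.89), 3.79 (2.12 to 7.21) and 2.33 (1.56 to 3.54), and their edgeR adjusted p rose to 0.098 (Olfr985, without 2i replicate 2), 0.18 (Ccdc155, without 2i replicate 3) and 0.16 (Pga5, without 25 µM replicate 2).

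Among the falls, the calcium-binding protein gene S100a13 had 37.3, 34.9 and 29.4 CPM in 2i and 19.9, 20.7 and 18.0 CPM at 25 µM (−0.80 ± 0.15, edgeR adjusted p = 0.011, and 0.057 without 25 µM replicate 3). The desmosome gene Pkp2 had 14.9, 21.1 and 16.9 CPM against 10, 8.62 and 9.94 CPM (−0.89 ± 0.17, 0.011, and up to 0.090 without 2i replicate 2). Ap3b2 (−1.01), Hint3 (−0.99), Fgfrl1 (−0.95), Acsl6 (−0.90), the biliverdin reductase gene Blvra (−0.89) and Golim4 (−0.79) fell too, and lost their calls without 4 to 6 of the libraries, with an adjusted p of up to 0.28 for Fgfrl1 (without 2i replicate 2).

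The step from 25 to 50 µM was tested in the same fit. It shares the 25 µM libraries with the comparison above, so the 2 sets of changes are not independent and are given side by side. Over all genes 24 were higher (0.181%) and 129 lower (0.975%) at 50 than at 25 µM, 153 in all (1.16%). Of the 60 genes higher at 25 µM, 6 were called higher again at 50 µM, and of the 64 lower ones 10 were called lower again; none was called in the opposite direction. Among the genes taken by the naming rule, 6 were higher and 10 lower at 50 than at 25 µM, and 14 and 16 with the replicate block. Of these named genes 1 was called higher without 25 µM replicate 2, 25 µM replicate 3 or 50 µM replicate 3, and 6 were called lower without 25 µM replicate 3.

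Rpl13a reached 1003, 877 and 1052 CPM at 50 µM (0.45 above 25 µM, edgeR adjusted p = 0.012). Hist1h2ae reached 25.7, 24.5 and 30.6 CPM (0.85, 0.0073) and Hist1h4i 14.8, 18.2 and 21.7 CPM (0.76, 0.022). Smc1b was at 19, 20.7 and 16.7 CPM (−0.76, 0.0010) and Rhox5 at 140, 163 and 121 CPM (−0.67, 0.012). In these genes the 50 µM libraries lay beyond all libraries of 25 µM. Gm21761 was at 0.881, 0.597 and 0.486 CPM (−2.92, 0.00013). Ddr2, at 14.6, 13.3 and 10.8 CPM, differed by −1.24 (1.1e-05). Other genes showed no called step. Uhrf1 had 225, 207 and 183 CPM at 50 µM (0.09, 0.77), Cdt1 383, 348 and 356 CPM (0.21, 0.28), Clk4 65.7, 61.0 and 52.9 CPM (0.24, 0.45), Mybl2 181, 164 and 174 CPM (0.21, 0.28) and Fkbp6 14.8, 17.2 and 13.4 CPM (−0.42, 0.28). A p that misses the threshold does not show that the doses acted alike. Genes not called at 25 µM without the block were also among the steps, with Bmp4 at 218, 158 and 141 CPM (1.07, 0.022) and Dppa3 at 24.7, 43.1 and 47.6 CPM (−1.18, 0.034).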

How the data were processed

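Expression was profiled in 12 libraries, 3 per group. QuantSeq 3′ libraries from total RNA were sequenced on a NextSeq 550, per the labels' protocols. The submitters' processing notes name FastQC, STAR, DESeq2 1.32.0 and the GRCm38 build; the sources used here do not give the counting tool, its annotation or strand setting, or whether molecular identifiers served. The authors deposited raw counts for 56805 features per library. Of these, 114 spike-in features with 2 counts in all were left out, and 52073 of 56691 mouse gene IDs had a symbol in the reference table.

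The main test was edgeR 4.0.16 (R 4.3.3): TMM factors, filterByExpr with a minimum count of 10, a robust quasi-likelihood fit of 4 groups over 12 libraries, and Benjamini-Hochberg adjustment with a threshold of 0.05. The SE was derived from the F statistic. Alternatives were DESeq2 1.42.0, voom (limma 3.58.1), other scalings, filters, the 6 libraries alone, the replicate block and leaving out libraries. The replicate numbers come from the sample titles. Deviations from the group means over 8297 genes correlated at 0.548, 0.363 and 0.344 for libraries of the same number and at −0.406 to 0.125 otherwise, so the numbers were taken to pair the libraries. The fit was tested on simulated counts that held no replicate-number effect, so that test does not bear on the choice between the fits with and without the block. Count ratios have exact 95% intervals, which cover counting error only.

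Named genes were the largest non-overlapping called changes at 2 levels of expression, a set of anchors, and the members of each gene list with the smallest p. The members and lists were chosen with earlier results of these data known. Other genes, among them Gm21761, E2f8, Ddx39b, Sohlh2 and members called only with the block, were named after their values were seen.
Some results are not reported here.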

Additional observations from a re-analysis of the deposited data

How the results depend on the processing

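Main counts were 60 genes higher and 64 lower. DESeq2, voom, RLE or upper-quartile scaling and a stricter filter gave 49 to 64 higher and 59 to 82 lower. Single calls differed between these methods. Among others, voom did not call Krt19 (voom adjusted p = 0.077), Hist1h4b (0.071), E2f8 (0.056), Rian (0.056) and Epha2 (0.053). DESeq2 did not call Ccdc155 (DESeq2 adjusted p = 0.054). Without a low-count filter the counts were 113 and 155, and in the 6 libraries alone 34 and 49. The replicate block gave 328 and 299, and 567 and 599 in the 6 libraries alone; its effect on named genes stands beside them in the report. Leaving out 1 library gave 10 to 39 higher and 19 to 62 lower. With the block and 1 library left out, higher counts were 129, 125 and 118 (2i replicates 1 to 3) and 132, 142 and 184 (25 µM), and lower counts 181, 149 and 134, then 140, 124 and 200. Without all libraries of number 1, 2 or 3, chosen after seeing the data like the blocked leave-outs, higher counts were 58, 1 and 2 and lower counts 82, 5 and 2; with the block they were 133, 72 and 137, and 165, 77 and 158. From 25 to 50 µM the named genes called were 6 higher and 10 lower, 14 and 16 with the block, and 1 to 8 and 6 to 9 with a library left out. None of the named genes called in the main test reversed direction under the alternatives run. Medians near 0 changed sign with the scaling. That of all genes went from 0.004 to −0.01 (RLE), −0.005 (upper quartile) and −0.009 (DESeq2). That of naive genes went from 0.01 to −0.002 (RLE) and −0.0003 (DESeq2). Fewer libraries leave fewer degrees of freedom; the cause of the other shifts was not tested. For genes with few counts, counting error limits the fold.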
